A study of Mus musculus with 12 samples.

Results

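The daily course of gene expression in the wild-type mouse eye kept in constant darkness was described from 6 RNA sequencing libraries, which are 6 of the 12 libraries of the series. The other 6 libraries came from mice with a retina-specific deletion of the glucocorticoid receptor gene Nr3c1 (Cre-positive, called cKO), and the 6 described here from controls without Cre (Cre-negative, called WT). The 6 WT libraries were chosen by their labels alone, with no use of the measured values. All mice were males of 12 weeks that had spent 2 weeks in a cycle of 12 h light and 12 h dark before the lights were left off. The eyes were collected during the second day without light, every 4 h from circadian time (CT) 2 to 22, with CT0 to CT12 called subjective day and CT12 to CT24 subjective night. Each library held the RNA of 3 mice mixed in equal amounts, so there was 1 pool per time, no replicate pool and no measure of how single mice differ. The driver of the Cre transgene is not named in the sources used here. The protocols name whole eyes as the source, the title names the retina, while the tissue fields give ciliary body and a cell line of nonpigmented ciliary epithelium. The filter on low counts passed 15434 of all 32517 rows used. Of the tissue lists used here, that of the lacrimal or Harderian gland passed least, with 2 of 8 genes. Genes of many tissues of the eye were read. All 26 rod genes, all 27 lens genes and 16 of 17 genes of the ciliary body and the outflow of aqueous humour passed. So did 16 of 17 genes of the cornea and conjunctiva and 20 of 22 muscle genes. The material is therefore called whole eye below.

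The circadian clock of mammals is a loop of transcription. The activators CLOCK, NPAS2 and BMAL1 (gene Arntl) bind E-box sequences and switch on the Per and Cry genes, whose proteins return to inhibit the activators, while the nuclear receptors of the Rev-erb (Nr1d1, Nr1d2) and Ror families and the PAR bZIP factors (Dbp, Tef, Hlf) pass the rhythm on through other elements. The retina holds a clock of its own, which is known to time dopamine and melatonin signalling, coupling between photoreceptors and the shedding of outer segments, and the cornea and ciliary body hold clocks too.

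The WT pools had 10538452 to 10703737 counts each, about 10.6 counts per CPM, the count scaled to a common library size, and 15434 genes were tested. Nr3c1 stood at 38.8 to 49.6 CPM in the 6 cKO libraries and at 55.4 to 75.9 CPM in the 6 WT libraries, which did not overlap. In a principal component analysis of the WT pools the first component, with 28.5% of the variance, set CT18 and CT22 apart from the other 4 times, and the second, with 24.3%, set CT14 apart. CT18 had the highest sums of blood, vessel and connective tissue genes, CT18 and CT22 the highest of immune genes, and CT22 the lowest sum of lens genes, as given below.

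A cosine with a period of 24 h was fitted to the 6 WT pools of each gene, with 3 residual degrees of freedom. It passed the threshold (edgeR quasi-likelihood test, Benjamini-Hochberg adjusted p under 0.05) for 19 genes, which is 0.123% of those tested. At an unadjusted p under 0.05 the cosine was called for 1393 genes, 9.03% of those tested, and at an unadjusted p under 0.01 for 400. The fold range, meaning the fitted peak over the fitted trough, had a median of 2.48 among the 19 genes, with the smallest at 1.64, against a median of 1.16 over all genes tested. The median is the same with Rpl14-ps1, a pseudogene at 0 in 4 pools, set at its lower bound of 31.9. Below, a gene is said to be called at the unadjusted threshold of 0.05 and to pass at the adjusted one. The gene lists were chosen with earlier results of these data known, so their shares beside that of all genes are descriptions and not independent evidence. Of the 19 fitted peaks, 8 lay in the subjective day and 11 in the subjective night. Among the 400 genes the split was 196 in the day and 204 in the night, and the most crowded of the 6 windows of 4 h was the one centred on CT18, with 107 of them (26.8%), against 2888 of all genes tested (18.7%). Without the CT18 pool 5 genes passed, of which 4 were among the 19, and without the CT22 pool 15 passed, of which 11 were. Amplitudes below are the distance from the mean to the fitted peak, on the log2 scale, with the standard error (SE) of the fit.

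Most clock genes were called, although only 1 of them passed the adjusted threshold. Of 21 clock genes tested, 13 had an unadjusted p under 0.05 (61.9%), beside the 9.03% of all genes, and their median amplitude over all 21 was 0.20 against 0.11 over all genes tested. The PAR bZIP factor Dbp, a transcription factor driven directly by the clock, passed. Its level was 117, 162, 176, 167, 130.1 and 105 CPM from CT2 to CT22. It was high from CT6 to CT14 and low at CT22 and CT2, with a fold range of 1.72, an amplitude of 0.39 ± 0.04 and a fitted peak at CT 10.6 (adjusted p = 0.0285). Without the CT18 pool the amplitude was 0.40 and the adjusted p 0.0716, and without the CT22 pool they were 0.37 and 0.114. Its relative Tef had its fitted peak at CT 14.2, over a fold range of 1.31, and Hlf kept between 189 and 205 CPM with a fitted fold range of 1.03.

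**Figure D1:**
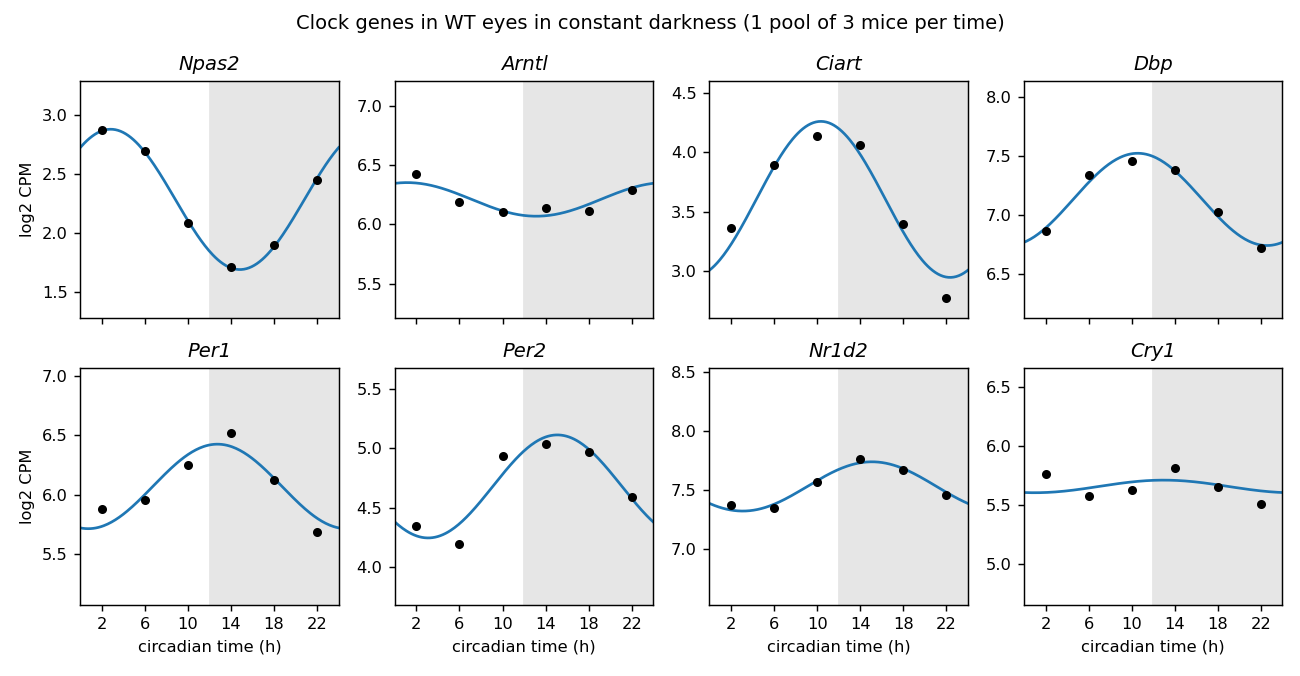
Log2 CPM of 8 clock genes in the 6 WT pools (points, 1 pool of 3 mice each) against circadian time, with the fitted 24 h cosine (line) and the subjective night in grey. Each panel spans the same height of 2 log2 units. Npas2 and Arntl are high around CT2, Ciart and Dbp around CT10 and Per1 around CT14. Per2 is high from CT10 to CT18 and Nr1d2 around CT14 to CT18, while the curve of Cry1 is nearly flat.

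The called repressors had fitted peaks from the late subjective day to the early night. Ciart, a repressor of CLOCK and BMAL1 also called Chrono, had 10.1, 14.6, 17.4, 16.6, 10.3 and 6.64 CPM from CT2 to CT22. The highest 2 pools were CT10 and CT14 and the lowest was CT22, and the fold range of 2.49 at a fitted peak of CT 10.3 fell just short of the threshold (adjusted p = 0.0659). Per1 had 58.7, 61.9, 75.96, 91.7, 69.6 and 51.1 CPM from CT2 to CT22, so that CT14 alone stood at the top. Per2 had 20.2, 18.1, 30.4, 32.7, 31.1 and 23.9 CPM from CT2 to CT22, with CT10, CT14 and CT18 close together. The fitted peaks ran from CT 12.7 for Per1 to CT 15.1 for Per2 and CT 15.4 for Per3, with fold ranges of 1.64, 1.83 and 1.37. Bhlhe41, which competes for E-boxes, had its fitted peak at CT 14.1. Cry1 (45.3 to 56.2 CPM) and Cry2 (104 to 125 CPM), the partners of the Per proteins, had fold ranges of only 1.08 and 1.09 and were not called at the unadjusted threshold. Bhlhe40 was not called either.

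The called activators had fitted peaks near the start of the subjective day. Npas2 had 7.11, 6.29, 4.05, 3.08, 3.54 and 5.25 CPM from CT2 to CT22, a fold range of 2.27 with its fitted peak at CT 2.8. It did not pass (adjusted p = 0.220) and rests on 32 to 74 counts per pool. CT2 and CT6 were its highest pools and CT14 and CT18 its lowest. Clock and Arntl, the core pair, had smaller fold ranges of 1.21 and 1.22 with fitted peaks at CT 0.7 and CT 1.1, and Arntl2 was not called. Among the nuclear receptors Nr1d2 (Rev-erb beta) had 166, 163, 189.8, 217, 203 and 176 CPM from CT2 to CT22, with its fitted peak at CT 15.1. Nr1d1 (Rev-erb alpha) was highest at CT6 with 212 CPM and lowest at CT22 with 171 CPM, and was not called (fold range 1.18). Rorb, which activates through the same element that the Rev-erb proteins repress, had its fitted peak at CT 18.5, while Rora was not called, nor was Nfil3, a repressor of D-box sites.

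The promoter sequences of some of these genes show where E-boxes and D-boxes lie. The 250 bases before the start of transcription were read from RefSeq (GRCm38.p6) for 18 of the 21 clock genes, 24 promoters in all, and searched on both strands for the E-box CACGTG, the D-box TTATGTAA or TTATGCAA, and the RORE element of the Ror and Rev-erb receptors. An E-box was found in 6 of the 24 clock promoters (25%), those of Bhlhe41, Ciart, Cry1, Per1 and Tef, against 6.02% of all 32851 promoters in the table and 7.77% of those of the genes tested. A D-box was found in 2 of the 24, those of Per1 and Per3, against 1.5% of all promoters, and no RORE was found in them. The 19 genes past the threshold had 13 promoters in the table, from 12 genes, and of these only the promoter of Pdzph1, the gene with the smallest p, held one of the 3 motifs, a D-box. Of the 2 promoters of Per1 in the table, the one of the second start, chr11:69099902-69100151, held none of the motifs and is not shown. Ciart, the first start of Per1 and Tef are shown for their E-boxes (E-boxes and D-boxes in capitals, as read in the direction of the gene, so that a D-box on the opposite strand appears as TTGCATAA), and Pdzph1 for its D-box. The promoters lie at chr3:95882229-95882478 on the minus strand, chr11:69098699-69098948 on the plus strand, chr15:81802423-81802672 and chr15:81811164-81811413 on the plus strand for the 2 starts of Tef, and chr17:58991376-58991625 on the minus strand.
Ciart: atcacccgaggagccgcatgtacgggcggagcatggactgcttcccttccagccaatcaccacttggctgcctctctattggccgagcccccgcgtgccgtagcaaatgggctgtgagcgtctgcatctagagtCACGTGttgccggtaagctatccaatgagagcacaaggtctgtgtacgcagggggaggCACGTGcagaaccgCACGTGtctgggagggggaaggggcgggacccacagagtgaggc
Per1, first start: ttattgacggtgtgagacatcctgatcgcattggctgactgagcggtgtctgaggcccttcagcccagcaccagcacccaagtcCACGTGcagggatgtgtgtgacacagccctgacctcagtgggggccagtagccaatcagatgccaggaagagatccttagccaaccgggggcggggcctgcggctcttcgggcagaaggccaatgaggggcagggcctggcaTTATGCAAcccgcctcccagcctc
Tef, first start: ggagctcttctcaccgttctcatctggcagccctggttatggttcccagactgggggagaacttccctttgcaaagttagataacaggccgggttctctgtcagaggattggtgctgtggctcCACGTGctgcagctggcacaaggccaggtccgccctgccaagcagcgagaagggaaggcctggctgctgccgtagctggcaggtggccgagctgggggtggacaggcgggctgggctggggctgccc
Tef, second start: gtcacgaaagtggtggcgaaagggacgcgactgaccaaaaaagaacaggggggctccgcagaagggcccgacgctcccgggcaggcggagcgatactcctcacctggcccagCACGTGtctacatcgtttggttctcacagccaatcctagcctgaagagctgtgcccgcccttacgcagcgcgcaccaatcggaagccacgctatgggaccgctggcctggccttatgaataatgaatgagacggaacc
Pdzph1: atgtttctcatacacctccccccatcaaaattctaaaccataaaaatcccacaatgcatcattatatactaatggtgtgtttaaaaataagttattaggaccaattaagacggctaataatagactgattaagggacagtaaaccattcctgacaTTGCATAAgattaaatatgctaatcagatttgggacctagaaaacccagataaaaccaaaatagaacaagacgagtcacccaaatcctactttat
In Ciart the 3 E-boxes lay 116 to 111, 58 to 53 and 44 to 39 bases before the start. At the first start of Per1 the E-box lay 166 to 161 and the D-box 24 to 17 bases before it. The E-boxes of the Tef starts lay 127 to 122 and 138 to 133 bases before them, and the D-box of Pdzph1 lay 95 to 88 bases before its start.

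Known outputs of clocks were called about as often as the clock genes, in 11 of 18 genes tested (61.1% beside 9.03%), of which Rbm3 and Drd4 passed the adjusted threshold. Rbm3, an RNA-binding protein induced by cold, had 146, 199, 203, 160.2, 137 and 127 CPM from CT2 to CT22. CT6 and CT10 were its highest pools and the fold range was 1.64 (fitted peak CT 8.7, adjusted p = 0.0382). Its relative Cirbp, also cold-induced, had 278, 297, 276, 197, 226 and 216 CPM from CT2 to CT22, with the 3 daytime pools above the 3 of the night and a fitted peak at CT 5.4 that did not pass. Drd4, the dopamine receptor of photoreceptors, had 147, 133, 143, 258, 238 and 195 CPM from CT2 to CT22. All 3 night pools were above all 3 day pools, and the fold range was 1.999 with the fitted peak at CT 17.2 (adjusted p = 0.0382). Gnaz, a G protein subunit, and Adcy1, an adenylyl cyclase, both parts of the signalling of dopamine receptors, had fitted peaks at CT 16.7 and CT 10.0, without passing. Drd1, another dopamine receptor, had its fitted peak at CT 17.3 with a fold range of 1.41. Among 19 genes of dopamine, cAMP and melatonin signalling 3 were called at the unadjusted threshold (15.8% beside 9.03%), and Asmt, Mtnr1a and Mtnr1b, the last enzyme of melatonin synthesis and the melatonin receptors, did not pass the filter on low counts. List members that are named here and below without passing were in part picked after their values were seen, and the lists were chosen with earlier results known.

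Besides Dbp and Rbm3, 6 genes passed with fitted peaks in the subjective day. Pdzph1, which encodes a protein with PDZ and pleckstrin homology domains, had the smallest p of all genes. It stood at 100.1, 137, 139, 100.3, 69.98 and 69.3 CPM from CT2 to CT22, a fold range of 2.20 with an amplitude of 0.57 ± 0.04 and a fitted peak at CT 8.1 (adjusted p = 0.0025). CT6 and CT10 were its highest pools and CT18 and CT22 its lowest. Arr3, the arrestin that turns off cone opsins, had 116, 154, 198, 173, 127 and 98.6 CPM from CT2 to CT22. It was highest at CT10 and lowest at CT22, with a fold range of 1.96 (fitted peak CT 10.7, adjusted p = 0.00532). Fscn2, the fascin that bundles actin in photoreceptors, had 98.05, 96.1, 92.5, 67.9, 58.9 and 70.8 CPM from CT2 to CT22. Its 3 day pools were above its 3 night pools (fold range 1.72, fitted peak CT 5.6, adjusted p = 0.0382). Glmn, glomulin, had 46.4, 50.1, 56.3, 37.1, 28.01 and 29.8 CPM from CT2 to CT22, likewise with its 3 day pools above its 3 night pools and highest at CT10 (fold range 2.04, fitted peak CT 7.3). Ttll11, an enzyme that adds glutamate chains to tubulin, had 26.8, 37.9, 39.5, 27.2, 22.4 and 23.3 CPM from CT2 to CT22. It was high at CT6 and CT10 only, with CT2 just below CT14 (fold range 1.83, fitted peak CT 8.1). The other gene was the processed pseudogene Gm10241, lowest at CT2 with 1.73 CPM and highest at CT14 with 11.1 CPM. It had 18 to 115 counts per pool. It was not aligned to any near-identical copy, so the assignment of its counts was not checked.

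**Figure D2:**
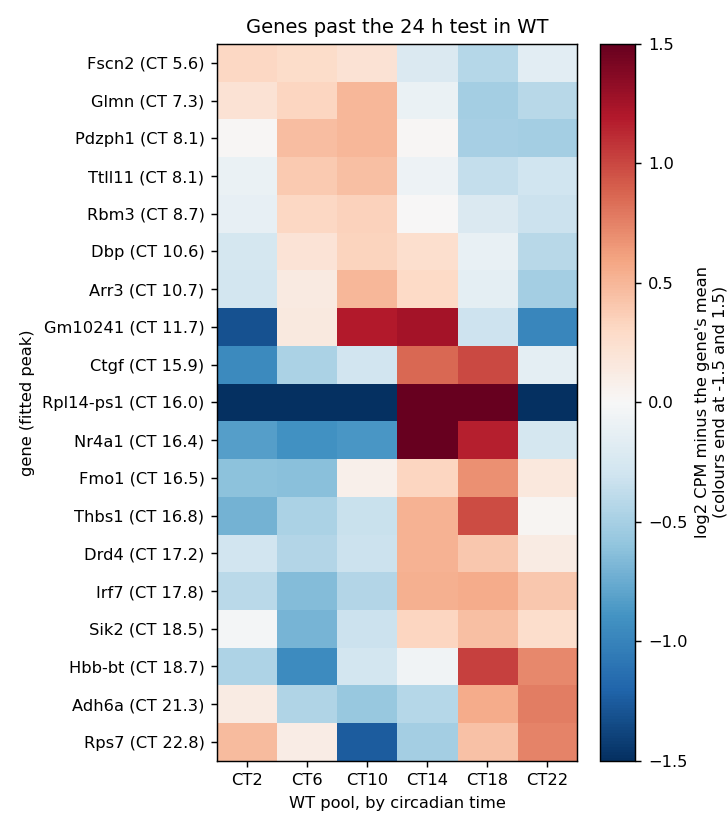
Log2 CPM minus the gene's own mean in each WT pool (columns, by circadian time) for the 19 genes past the 24 h test (rows, ordered by fitted peak). The rows from Fscn2 to Arr3 are above their mean at CT6 and CT10, and the rows from Ctgf to Sik2 at CT14 and CT18. Colours end at 1.5 log2 units, which Nr4a1 and Rpl14-ps1 exceed.

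The other 11 genes, Drd4 among them, passed with fitted peaks in the subjective night. Irf7, a transcription factor that switches on interferon genes, had 37.9, 32.02, 37.2, 73.1, 74.3 and 66.8 CPM from CT2 to CT22. Its 3 night pools were near each other and all above the 3 day pools, with a fold range of 2.64, an amplitude of 0.70 ± 0.06 and a fitted peak at CT 17.8 (adjusted p = 0.00713). Irf7 and Drd4 lie close to each other on chromosome 7 (GRCm38, Irf7 at 141262706 to 141266481 and Drd4 at 141292006 to 141296464). The pair was picked from the genes that passed, and a link between position and rhythm was not tested. Ctgf, a secreted matrix protein and a target of the Hippo pathway, had 36.5, 50.98, 58.2, 129, 141 and 63.9 CPM from CT2 to CT22, and Thbs1, the matrix protein thrombospondin 1, had 57.2, 67.6, 74.4, 135, 185 and 95.9 CPM from CT2 to CT22. Both were highest at CT18 and high at CT14, with fold ranges of 3.73 and 2.996 (adjusted p = 0.0127 and 0.0191). Without the CT18 pool the amplitude of Ctgf was 0.85 (adjusted p = 0.0572), against 0.95 ± 0.10 with it, and that of Thbs1 was 0.65 (adjusted p = 0.0735), against 0.79 ± 0.09 with it. Nr4a1, an immediate early nuclear receptor, had 13.4, 12.7, 13.01, 78.1, 54.1 and 19.9 CPM from CT2 to CT22. CT14 and CT18 stood far above the rest, and the fold range of 6.35 was the widest of the 17 genes with an established name (amplitude 1.33 ± 0.21, adjusted p = 0.0488).

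Sik2, a salt-inducible kinase that acts on CREB coactivators, had 60.4, 37.9, 49.5, 77.5, 84.8 and 74.2 CPM from CT2 to CT22, low at CT6 and high at CT18 (fold range 2.13, fitted peak CT 18.5, adjusted p = 0.0382). Fmo1, a flavin monooxygenase, had a fold range of 2.48 at CT 16.5 and the alcohol dehydrogenase Adh6a one of 2.71 at CT 21.3, both at under 30 CPM in every pool. Hbb-bt, a beta globin chain, is described with the blood genes, and Rps7 and the pseudogene Rpl14-ps1 with the gene copies. Genes just outside the threshold were Edn3 (endothelin 3, adjusted p = 0.0572), Tsc22d3 (0.0572), Spry2, an inhibitor of growth factor signalling (0.0572), Angptl7 (0.0659), Plet1 (0.0659), Ciart (0.0659) and Rgs20, a regulator of G proteins (0.0728). Irf7 and Pdzph1 passed in all 12 alternative analyses, and Arr3, Ctgf and Thbs1 in 11 of 12. Without the CT18 pool, Pdzph1, Arr3, Irf7 and the pseudogene Gm10241 alone of the 19 still passed. Without the CT22 pool 8 of the 19 did not pass: the adjusted p was 0.0604 for Rps7 and Hbb-bt, 0.0694 for Fscn2, 0.0766 for Glmn, 0.0828 for Ttll11, 0.114 for Rbm3 and Dbp, and 0.144 for Adh6a.

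Among rod genes none passed the adjusted threshold. Of 26 tested, 8 had an unadjusted p under 0.05 (30.8% beside 9.03%), and the count was 4 without the CT18 pool (beside 6.69% of all genes), 4 without the CT22 pool (beside 6.96%) and 13 without the CT2 pool (beside 11%). Guca1b, an activator of guanylate cyclase that restores the dark current, had 1007, 1069, 1127, 915, 657 and 760.0 CPM from CT2 to CT22. It was lowest at CT18 (fold range 1.68, fitted peak CT 7.3, adjusted p = 0.0871), and its neighbour in function Guca1a had its fitted peak at CT 8.4. Nr2e3, the nuclear receptor that keeps rods from becoming cones, was instead highest at CT2 with 523 CPM and lowest at CT14 with 267 CPM, and Rcvrn, recoverin, was highest at CT18 with 622 CPM and lowest at CT6 with 427 CPM. Sag, rod arrestin, ran between 2483 CPM at CT18 and 4057 CPM at CT10. The 26 rod genes summed to between 59834 and 69354 CPM. Of 13 cone genes, Arr3 and Pde6c were called (15.4% beside 9.03%), and of 15 ganglion cell genes and 17 genes of amacrine and horizontal cells none was, at either threshold.

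Immediate early genes, whose transcription starts soon after neuronal activity or growth factor signals, mostly had fitted peaks in the subjective night where they were called. Of 23 tested, 10 had an unadjusted p under 0.05 (43.5% beside 9.03%), 9 of them with fitted peaks in the night, and Ctgf and Nr4a1 passed. Egr1 had 11.4, 9.67, 9.05, 158, 42.7 and 12.3 CPM from CT2 to CT22. CT14 stood far above the next pool, CT18, and the other 4 pools lay together. Fos, a subunit of AP-1, had 12.8, 10.99, 11.7, 45.7, 28.01 and 13.7 CPM from CT2 to CT22, and Nr4a3, a relative of Nr4a1, ran between 1.04 CPM at CT10 and 5.10 CPM at CT14. Ier3 and Sik1 were likewise highest at CT14, with 67.8 and 30.9 CPM, and lowest at CT2, with 40.05 and 13.4 CPM. The exception among the 10 was Btg2, a brake on cell division, lowest at CT18 with 68.5 CPM. When the CT14 pool, which stood apart on the second component, was left out, 8 of the 23 were called, beside 7.56% of all genes. The summed level of the list was 583, 638, 621, 1019, 854 and 666 CPM from CT2 to CT22.

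**Figure D3:**
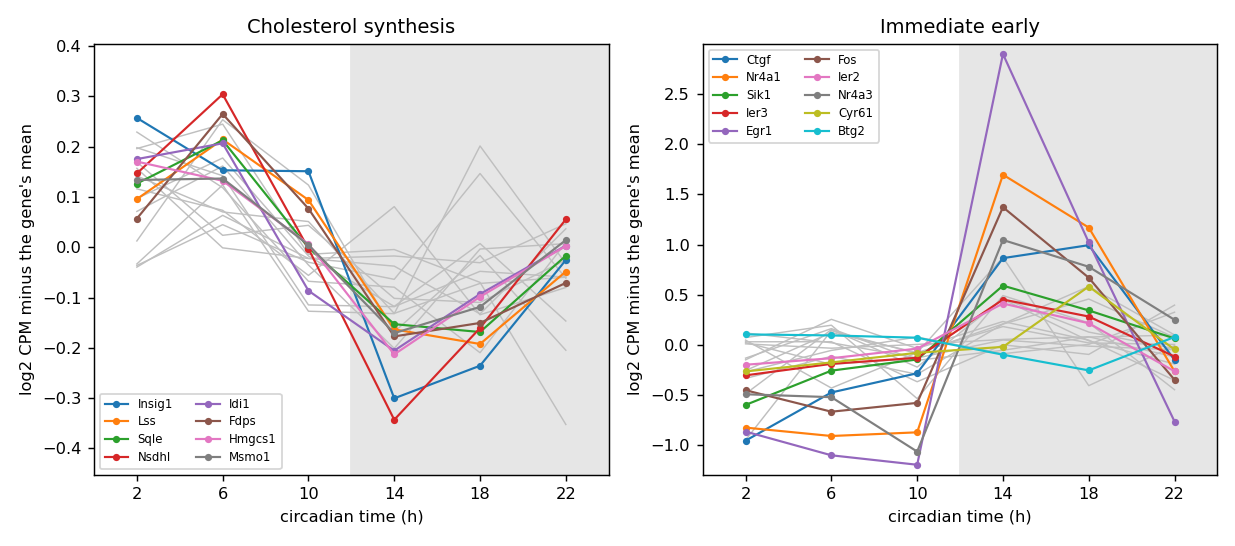
Log2 CPM minus the gene's mean against circadian time in the WT pools for cholesterol synthesis genes (left) and immediate early genes (right). Coloured lines are members with an unadjusted p under 0.05 (8 of the 10 on the left, all 10 on the right), thin grey lines the members tested without one, and grey shading the subjective night; the panels have different vertical scales. The coloured cholesterol genes are high at CT2 and CT6 and low at CT14 and CT18, and Egr1, Nr4a1, Fos and Nr4a3 stand highest at CT14.

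Genes known to be induced by glucocorticoids, the hormones whose blood level in mice is known to crest around the onset of activity, were called in 14 of 30 cases (46.7% beside 9.03%), none past the adjusted threshold. Of the 14, 9 had fitted peaks in the night. Tsc22d3, which encodes the anti-inflammatory protein GILZ, had 41.3, 41.3, 56.4, 64.5, 60.2 and 52.00 CPM from CT2 to CT22. It was high from CT10 to CT18 (fold range 1.61, fitted peak CT 15.4). Fkbp5, a cochaperone of the receptor, had 23.6, 27.98, 35.2, 43.6, 27.4 and 25.6 CPM from CT2 to CT22, and Sgk1, a kinase of ion transport, had 363, 353, 378, 453, 441 and 410.1 CPM from CT2 to CT22. Both were highest at CT14. Ddit4, an inhibitor of mTOR signalling, was also highest at CT14, with 153 CPM, and lowest at CT2, with 78.4 CPM. Cdkn1a, the cell cycle inhibitor p21, and the kinase Map3k6 went the other way, with fitted peaks at CT 3.8 and CT 3.8. Without the CT14 pool 9 of the 30 were called, beside 7.56% of all genes. None of 7 genes of the corticosteroid receptors and enzymes was called, and the fitted fold range of Nr3c1 in WT was 1.05.

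Among metabolic genes, cholesterol synthesis stood out by its uniform timing. Of 23 tested, 10 were called (43.5% beside 9.03%), all with fitted peaks between CT 3.2 and CT 5.5, and none past the adjusted threshold. Insig1, which holds back the sterol sensor, had 160.3, 149, 149, 109, 114 and 132 CPM from CT2 to CT22. The 3 pools of the day were above the 3 of the night, with a fold range of 1.46. Hmgcs1, which makes the precursor of mevalonate, had 189.9, 185, 169, 146, 158 and 169 CPM from CT2 to CT22, and Sqle, squalene epoxidase, had 84.03, 89.2, 76.9, 69.2, 68.4 and 76.1 CPM from CT2 to CT22. In all 3 genes the 2 lowest pools were CT14 and CT18. The widest fold range of the 10 was 1.47 (Nsdhl), and the sum of all 23 was 1745, 1771, 1610.5, 1443, 1495 and 1569.8 CPM from CT2 to CT22. Of 16 nutrient-responsive regulators 6 were called (37.5% beside 9.03%), among them Pfkfb3, a switch of glycolysis, and Hk2, hexokinase 2, which were highest at CT14 with 61.9 and 502 CPM, against 30.3 CPM at CT2 and 255 CPM at CT6.

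Among chaperone and cell cycle genes none passed the adjusted threshold. Of 16 heat shock genes 5 were called (31.2% beside 9.03%), all with fitted peaks in the night. Hsph1 had 58.00, 46.9, 56.2, 74.97, 64.7 and 63.4 CPM from CT2 to CT22, and Hspa8, the constitutive member of the Hsp70 family, had 1330.3, 1232, 1258, 1619, 1559 and 1498 CPM from CT2 to CT22. Both were highest at CT14 and lowest at CT6. Of 24 cell cycle genes 8 were called (33.3% beside 9.03%). Mki67, the marker of dividing cells, had 7.59, 7.42, 5.75, 2.60, 2.58 and 5.16 CPM from CT2 to CT22, a fold range of 3.25 at a fitted peak of CT 4.2 that rests on fewer than 100 counts per pool. Cdk1, the mitotic kinase, and Plk1 had fitted peaks at CT 1.4 and CT 4.1, while Mcm6 and Mcm7, parts of the replicative helicase, had them at CT 19.0 and CT 21.0. The clock-driven kinase Wee1, which delays mitosis, was highest at CT14 with 15.01 CPM and lowest at CT2 with 7.59 CPM. Of the 24 interferon genes 4 were called (16.7% beside 9.03%): besides Irf7, Ifit3 and Stat2 had fitted peaks at CT 16.5 and CT 17.7, and Oas2 at CT 2.2.

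**Figure D4:**
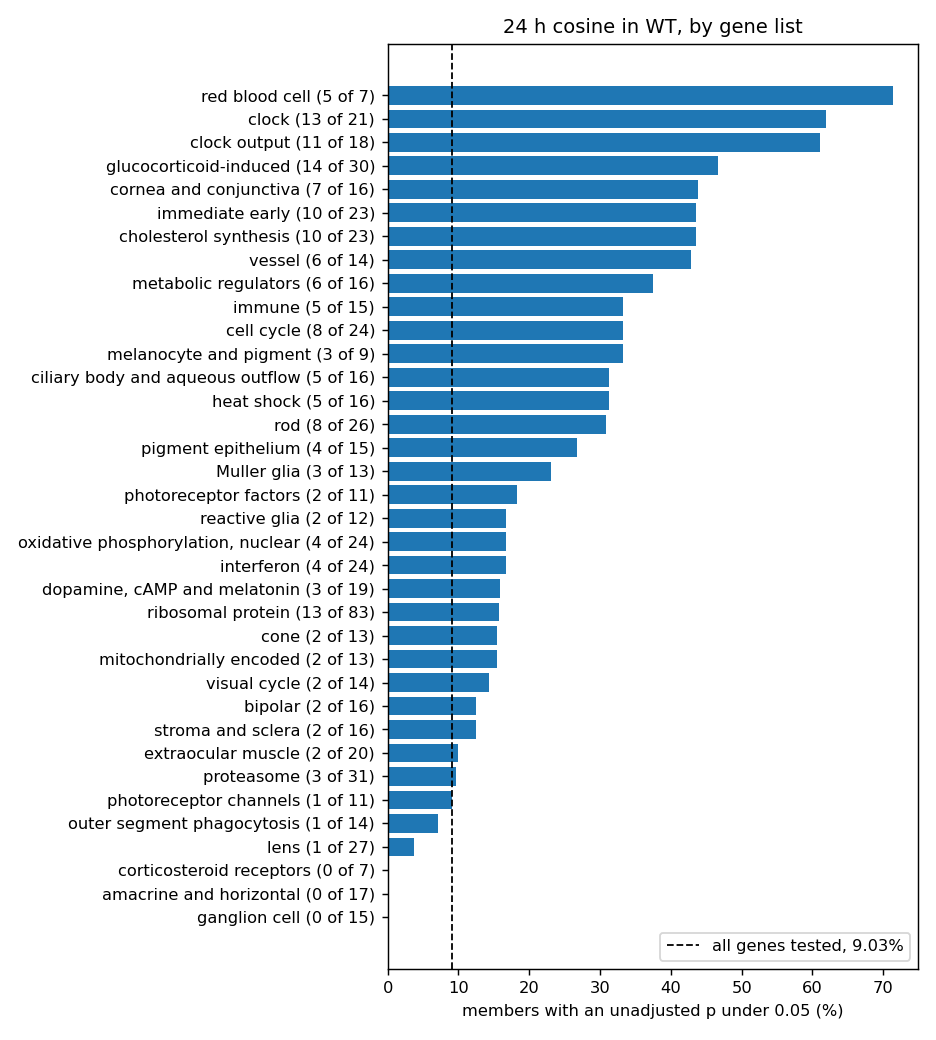
Share of each gene list's tested members with an unadjusted p under 0.05 for the 24 h cosine in WT (bars, in percent), with the called and tested members in brackets, for the lists with 7 or more members tested. The dashed line marks the 9.03% of all genes tested. Red blood cell, clock and clock output lists are at the top and ganglion cell, amacrine and horizontal, and corticosteroid receptor lists have none.

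In whole eyes, a change in the number of cells of a type and a change in RNA per cell cannot be told apart, and several tissue lists differed mainly in 1 or 2 pools. Red blood cell genes summed to 292, 249.7, 271, 277, 581 and 369 CPM from CT2 to CT22. CT18 was above every other pool, and 5 of 7 genes were called (71.4% beside 9.03%), all with fitted peaks in the night. Without the CT18 pool 4 of the 7 were called, beside 6.69% of all genes, and without the CT22 pool 5, beside 6.96%. Without both, a choice made after the data were seen, 2 of the 7 were called, beside 13.2% of all genes. Hbb-bt, which passed, had 9.70, 6.85, 11.03, 12.9, 27.4 and 22.1 CPM from CT2 to CT22 (fold range 3.51, amplitude 0.91 ± 0.12, adjusted p = 0.0382). Its amplitude was 0.82 and its adjusted p 0.253 without the CT18 pool. Hbb-bs, its near-identical neighbour, had 73.6, 57.8, 72.4, 65.1, 166 and 104 CPM from CT2 to CT22. Immune genes summed to 229, 276, 271, 255, 401 and 401 CPM from CT2 to CT22, so that CT18 and CT22 stood apart, with Lyz2, lysozyme of macrophages and neutrophils, at 146 CPM at CT18 and 181 CPM at CT22 against 76.8 to 94.3 CPM at the other times. Of 15 immune genes 5 were called (33.3% beside 9.03%), and of 14 vessel genes 6 (42.9%). When CT18 was left out, 1 immune gene and 2 vessel genes were called, beside 6.69% of all genes. Rgs5, a marker of pericytes, was highest at CT18 with 116 CPM, against 63.5 CPM at CT2.

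Connective tissue genes of the stroma and sclera summed to 1072, 1609, 1258, 1226, 2163 and 1504 CPM from CT2 to CT22, again highest at CT18, and 2 of 16 were called (12.5% beside 9.03%), Col12a1 and the proteoglycan Bgn, with Bgn at 263 CPM at CT18. The outflow pathway genes Myoc, linked to glaucoma, and Mgp, which keeps calcium out of tissue, were highest in the same pool, with 125 and 111 CPM at CT18 against 63.5 and 74.6 CPM in the next highest pool. Angptl7, a secreted factor of the cornea and outflow tissue, had 11.9, 24.6, 31.4, 51.01, 84.1 and 38.1 CPM from CT2 to CT22. It was lowest at CT2 and highest at CT18 (fold range 4.67, fitted peak CT 16.1). Aqp1, the water channel of the ciliary epithelium, had 257, 281, 261, 397, 393 and 309.9 CPM from CT2 to CT22, with all 3 night pools above all 3 day pools. In these genes, as in Ctgf and Thbs1, the share of the connective tissue and blood in the CT18 pool was not tested.

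Surface epithelium genes were called in 7 of 16 cases (43.8% beside 9.03%), with 5 of the 7 fitted peaks in the day. Plet1, a surface protein of epithelial progenitors, had 187, 152, 129, 108, 136 and 156 CPM from CT2 to CT22, lowest at CT14 (fold range 1.60, fitted peak CT 1.6). Muc4, a mucin of the ocular surface, had 124, 154, 143, 87.2, 92.3 and 134 CPM from CT2 to CT22, and the summed level of the list was likewise lowest at CT14, with 6872 CPM against 8379.8 to 11008 CPM in the other pools. Muc5ac, the mucin of conjunctival goblet cells, ran between 10.7 and 28.2 CPM. Lens genes summed to 73660.4, 69547, 63294, 67279, 71211 and 44522 CPM from CT2 to CT22, with CT22 below all other pools, and 1 of 27 was called (3.7% beside 9.03%), the connexin Gja3.

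Most genes with a large swing between pools were not called for a 24 h course, although they were called more often than all genes. In 1672 genes, 10.8% of those tested, the highest pool was at least 2 times the lowest in CPM. Of these 1672 genes, 275 had an unadjusted p under 0.05 for the cosine, beside 1393 of all 15434 genes tested (9.03%). Of the 19 genes past the threshold, 14 had such a swing. Among established genes at a mean log2 CPM of at least 0, the 12 widest swings were those of Egr1, the gamma crystallins Cryga, Cryge and Crygf, and Zbed6, Hist2h2aa2, Gbp2b, Gvin1, Igflr1, Apol7e, Rhox4a2 and Pagr1a, and none of them passed the adjusted threshold. The crystallins, structural proteins of lens fibres, were low in a single pool: Cryge had 366, 193, 104, 148, 476 and 3.41 CPM from CT2 to CT22, and Cryga 2.95 CPM at CT22 against 25.1 to 97.01 CPM at other times. Cryge and Crygf are near-identical copies, so their separate counts are uncertain. The other 8 genes were listed at 0 counts in 1 or 2 pools and at under 14 CPM in the rest.

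Some of the widest apparent rhythms belonged to pairs of near-identical copies. Rps7, a ribosomal protein gene, passed the test with 225, 174, 67.8, 113, 219 and 270.4 CPM from CT2 to CT22 (adjusted p = 0.0488). Its processed pseudogene Gm6472, 99.4% identical over 651 aligned bases of transcript, was high where Rps7 was low: Rps7 had 719 counts and Gm6472 1971 counts at CT10, and 2933 and 589 counts at CT22. The sum of the pair had a coefficient of variation of 11.3% over the 6 WT pools, against 43.3% for Rps7 alone. It was not flat, with 3396, 3031, 2690, 2723, 3294 and 3522 counts from CT2 to CT22. Like Rps7 alone, the sum was lowest at CT10 and highest at CT22. Rps13 and Rps13-ps1, 99.6% identical over 522 bases, summed to 1906, 2172, 2151, 2152, 2065 and 2065 counts from CT2 to CT22, a coefficient of variation of 4.76% against 38.1% for Rps13 alone. Rps13-ps1 took 954 to 1142 of these in the first 4 pools but 0 in the CT18 pool and 55 in the CT22 pool. Rpl14-ps1, which passed the test, had 97 counts at CT14, 96 at CT18 and 0 in the other 4 pools, at least 31.9-fold lower there if 3 counts per pool are taken as the limit of a count of 0, while Rpl14 itself, 98.9% identical, had 4029 counts at CT14. Values of these genes one by one are uncertain for that reason. Of 83 ribosomal protein genes 13 were called (15.7% beside 9.03%).

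**Figure D5:**
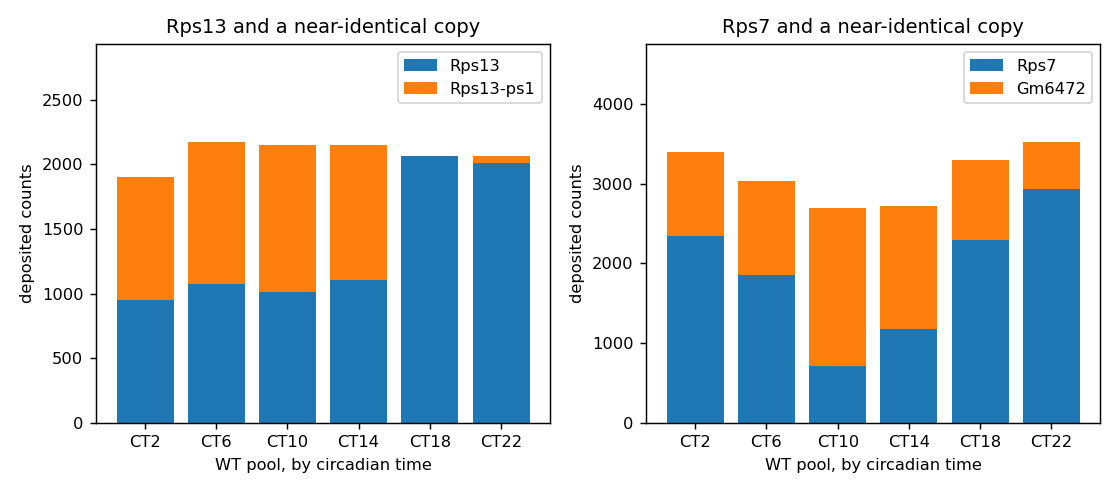
Deposited counts in the 6 WT pools, by circadian time, for Rps13 stacked with Rps13-ps1 (left) and Rps7 stacked with Gm6472 (right). The height of each whole bar is the sum of the pair. The sum of the Rps13 pair stays between 1906 and 2172 while the share of the pseudogene drops to 0 at CT18 and 55 counts at CT22.

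The cKO libraries, separate pools of mice taken at the same times, gave a second view of the 19 genes, with CPM scaled within each genotype. Fitted alone, 9.78% of genes tested in both genotypes had an unadjusted p under 0.05 in cKO, and of the 18 genes that could be tested there 15 did. Past the adjusted threshold in cKO were 10 of the 18, beside 68 of all 15416 genes tested there. Their fitted peaks lay within 4 h of the WT peak for 17 of the 18, against 51.6% of all genes tested in both. Among the 394 genes tested in both with an unadjusted p under 0.01 in WT, the share was 84.0%. Irf7 had a fold range of 3.08 in cKO and 2.64 in WT, with fitted peaks at CT 18.1 in cKO and CT 17.8 in WT. Arr3 had a fold range of 1.73 in cKO and 1.96 in WT, and Drd4 a fold range of 2.18 in cKO and 1.999 in WT. Dbp had a fold range of 1.53 in cKO and 1.72 in WT, and Ciart a fold range of 1.72 in cKO and 2.49 in WT. The 3 genes without a cosine in cKO were Adh6a, at 13.1 to 20.6 CPM in cKO and 7.92 to 20.3 CPM in WT, Hbb-bt, with a fitted peak at CT 5.3 in cKO and CT 18.7 in WT, and Rps7. The difference of rhythm was tested for each and none passed (adjusted p = 0.186 for Hbb-bt, the smallest of the 3).

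Over all genes the rhythm differed between cKO and WT for 4 of 15696 genes tested (0.0255%, edgeR, 12 libraries), with 408 at an unadjusted p under 0.05. Pnp, the purine nucleoside phosphorylase, had 41.7, 38.7, 53.1, 88.96, 66.6 and 62.9 CPM from CT2 to CT22 in cKO, and 78.7, 79.3, 61.3, 55.6, 50.1 and 70.3 CPM from CT2 to CT22 in WT. It was highest at CT14 in cKO and at CT6 in WT, with fitted peaks at CT 16.2 in cKO and CT 3.6 in WT (adjusted p = 0.0169). Psmb5, a catalytic subunit of the proteasome, had 42.8, 38.9, 51.3, 70.6, 58.01 and 49.9 CPM from CT2 to CT22 in cKO, and 61.6, 76.4, 60.5, 51.6, 45.1 and 60.8 CPM from CT2 to CT22 in WT, and likewise had its fitted peak at CT 15.6 in cKO and CT 5.0 in WT (adjusted p = 0.0318). The others were Rpl14-ps1 and the gene model Gm20547, both with counts in few pools. Among the 5 established genes with the smallest p were also Hjurp, a chaperone of centromeric histones, Hbb-bt and Ppp1r3e, a regulatory subunit of protein phosphatase 1, none of which passed. No clock gene differed in rhythm between the genotypes past the threshold, which only 4 of all 15696 genes passed. This does not show that the rhythm of the clock genes was the same in both. Ciart had its fitted peak at CT 7.4 in cKO and CT 10.3 in WT. Per3 had a fold range of 1.07 in cKO and 1.37 in WT. Other clock genes were closer, such as Dbp, with fitted peaks at CT 10.3 in cKO and CT 10.6 in WT. Nr1d2 had fold ranges of 1.27 in cKO and 1.33 in WT.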

How the data were processed

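Counts per gene were deposited by the authors in 1 table of 32544 rows and 12 libraries, per the file headers as raw data. Which aligner, counting tool, strand setting, genome build and annotation were used is not given in the sources used here. The table held 0 columns from outside the series. A spreadsheet had turned 27 gene names into dates. These rows, 0.157 to 0.167% of the WT counts, were left out, which left 32517, of which 20959 had a count in WT. Depth ran from 10538452 to 10703737 counts per WT library. The coefficient of variation that edgeR estimated about the curves was 7.62%.

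Counts of the 6 WT pools were filtered (filterByExpr, minimum count 10, minimum total 15), scaled by TMM and fitted in edgeR 4.0.16 (R 4.3.3) with cosine and sine terms of 24 h. The 2 terms were tested together by the quasi-likelihood F test, and p-values were adjusted by Benjamini-Hochberg over all genes tested. With 1 pool per time the error is the scatter about the curve, so a course of another shape adds to it. Amplitude, fold range and peak come from the same cosine on log2 CPM (prior count 2), with the SE moderated by limma 3.58.1. cKO pools were fitted alone in the same way, and the difference of rhythm, cKO minus WT, in 1 fit of 12 libraries. The code was tested on simulated data. Lists are described by counts, with no test of a list.

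The members, lists and rules were chosen with earlier results of these data known. Named were the 24 genes with the smallest p, the 12 with the largest amplitude past the threshold, all clock genes, up to 4 genes past the threshold per list (or its smallest p), the 12 widest swings and the 5 smallest p for the cKO difference, all with established names and a mean log2 CPM of at least 0. Others were picked after their values were seen. A few list members are counted but not reported here by name. Promoters came from RefSeq (GRCm38.p6) and gene positions and transcripts from GENCODE M21 (GRCm38), matched by symbol, and copies were aligned with Biopython 1.88. Alternatives were DESeq2 size factors, no filter, limma-trend, DESeq2 1.42.0, all 12 libraries in 1 fit, a prior count of 0.5 and each pool left out. Leaving out CT18 and CT22 together, the circadian time as a block in the fit of 12 libraries, and the list counts under each alternative were added after the data were seen.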

Additional observations from a re-analysis of the deposited data

Results flagged for a closer look

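For 4 genes the 24 h rhythm differed between cKO and WT in the test of the difference itself. Pnp (adjusted p = 0.01686) and Psmb5 (adjusted p = 0.03185) had fitted peaks at CT 16.2 and CT 15.6 in cKO and at CT 3.6 and CT 5.0 in WT. Pnp kept an adjusted p under 0.05 under DESeq2 size factors, without the filter, under limma-trend and under DESeq2, and without CT14, CT18 or CT22. Its adjusted p was 0.0566 without both libraries of CT2, 0.350 without those of CT6 and 0.161 without those of CT10. Psmb5 had 0.560 without CT6, 0.161 without CT10 and 0.0900 without CT14. Rpl14-ps1 (adjusted p = 0.03185) had 17 counts at CT10 and 0 at the other times in cKO, and 97 counts at CT14, 96 at CT18 and 0 at the other times in WT. Gm20547 (adjusted p = 0.03185), a gene model on chromosome 17, had 20 counts at CT2, 17 at CT6, 1 at CT14, 5 at CT22 and 0 at CT10 and CT18 in cKO, and 30 counts at CT10 and 0 at the other times in WT. Neither of these gene models passed under limma-trend or DESeq2.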

How the results depend on the processing

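The 19 genes past the test (1 of them a clock gene, 8 peaking in the day and 11 in the night, median fold range 2.48) numbered 19 with DESeq2 size factors and 17 with limma-trend, of which 15 were shared. Without the filter there were 52 (4 clock, 21 day, 31 night), with DESeq2 90 (4, 41 and 49, median fold range 1.63) and with all 12 libraries in 1 fit 52 (4, 20 and 32). Leaving out 1 pool gave 5 (without CT18) to 40 (without CT2) genes, 0 to 3 clock genes, 1 to 21 day and 2 to 19 night peaks and a median fold range of 2.15 to 3.91, with 10 genes without CT10. Without CT18 and CT22 together, an alternative added after the data were seen that leaves 1 residual degree of freedom, there were 589 genes (10 clock, 347 day, 242 night). The 4 genes whose rhythm differed between cKO and WT were 7 without the filter, 2 with limma-trend and 0 (without CT6 or CT10) to 9 (without CT14) with a time left out; at 0 the unadjusted p was under 0.05 for 423 and 418 genes. No named gene's fitted peak moved by over 6 h where the gene had passed. Night peaks outnumbered day peaks among the 19 genes, but day peaks outnumbered night peaks with limma-trend (9 and 8), without CT2 (21 and 19), without CT18 (3 and 2) and without CT18 and CT22 together. Over the named genes and alternatives, 894 calls kept their side of the threshold, 90 newly passed and 54 were lost. Of the 13 lists counted again under each alternative, those moved by over 1.5 times were rod (4 to 13), vessel (2 to 7), immune (1 to 8), heat shock (3 to 9), red blood cell (2 to 5), glucocorticoid-induced (9 to 17), cornea and conjunctiva (5 to 15) and ciliary body and outflow (4 to 10). The share of all genes called moved as well, from 3.74% with DESeq2 to 13.2% without CT18 and CT22 together. That last setting gave the upper counts of the heat shock, glucocorticoid-induced, cornea and conjunctiva, and ciliary body and outflow lists. Pools of the 2 genotypes share their times but not mice, and with the circadian time as a block, added after the data were seen, the rhythm differed for 11 genes, the same 4 among them. No paired analysis of replicates was possible because each genotype and time has 1 pool. With 1 pool per time, a rhythm cannot be told from a pool that differs for another reason.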

Other observations

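Pnp, Psmb5 and Ppp1r3e, which were 3 of the 5 established genes with the smallest p for the difference of rhythm between cKO and WT, lay within 3.95 Mb of each other on chromosome 14 (GRCm38, 50931082 to 54877550). This span was marked out after the values were seen. Ppp1r3e, at one end of it, did not pass the edgeR test of the difference (adjusted p = 0.337) and had 35 to 85 counts per WT pool. Pseudogenes and gene models without an established name, some with a smaller p than Ppp1r3e, do not count among the 5. Over all genes tested, 2.6% had an unadjusted p under 0.05. The share among all genes of the span was not counted, and a link between position and rhythm was not tested.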
